A study of Homo sapiens with 9 samples.

Results

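Rh30 cells grown as a monolayer were compared with the same cells in three-dimensional growth, with spheres and xenografts averaged at equal weight. Genes that moved the same way from the monolayer in both states were then described. Rh30 is a human alveolar rhabdomyosarcoma cell line that carries the PAX3-FOXO1 fusion (fusion-positive, FP-RMS). All 9 arrays of the series were used, 3 adherent, 3 sphere and 3 xenograft arrays, described by the study as biological triplicates. Adherent cells grew in RPMI medium with 10% FBS. Spheres grew for 48 h without attachment in Neurobasal medium with B27 (1X), bFGF (80 ng/ml), EGF (40 ng/ml) and insulin (50 µg/ml). Xenografts grew in SCID/beige mice. The labels place the tumors under the skin of the flank in Matrigel, from adherent or sphere cells, whereas the study's methods place them in the gastrocnemius muscle, from adherent cells in PBS. Attachment, medium, time in culture and the host all changed with the growth state, so their effects cannot be told apart, and all values come from 1 cell line. Of 54613 probe sets of the Affymetrix U133 Plus 2.0 array, 41091 carried 1 gene symbol and represented 19775 genes, each by its brightest probe set. A level is a log2 RMA value, and a log2 change is a difference of group means of such values.

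Cells on plastic spread through integrins, which join the extracellular matrix to actin stress fibres, and tension on these fibres keeps the co-activators YAP and TAZ in the nucleus. In spheres and tumors, cells are rounded, touch other cells on all sides and lie away from the medium or blood, and inner cells can run short of oxygen, which stabilises the transcription factor HIF-1 alpha. Metallothioneins are small proteins that bind zinc, and with the zinc exporter SLC30A1 they are induced by the zinc-sensing factor MTF1.

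SLC30A1 and metallothionein genes were among the largest shared rises, and the hypoxia response list held more shared rises than any other list counted. The promoters of 3 zinc genes and 2 hypoxia genes are therefore shown (RefSeq, GRCh38.p14, the 250 bases before the transcription start, 5′ to 3′ along the gene). Capitals mark the core of the metal response element (TGCACNC or TGCGCNC) in the first 3 and the core of the hypoxia response element (ACGTG or GCGTG) in the last 2. Both strands were searched, and a palindromic site such as CACGTG counts as 2 overlapping matches.
SLC30A1, chr1:211579162-211579411, minus strand: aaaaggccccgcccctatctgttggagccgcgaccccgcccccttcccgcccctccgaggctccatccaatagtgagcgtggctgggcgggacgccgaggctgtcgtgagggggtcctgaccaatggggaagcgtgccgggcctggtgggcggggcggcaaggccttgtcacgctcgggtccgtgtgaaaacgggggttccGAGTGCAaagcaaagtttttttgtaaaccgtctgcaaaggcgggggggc
MT1X, chr16:56682220-56682469, plus strand: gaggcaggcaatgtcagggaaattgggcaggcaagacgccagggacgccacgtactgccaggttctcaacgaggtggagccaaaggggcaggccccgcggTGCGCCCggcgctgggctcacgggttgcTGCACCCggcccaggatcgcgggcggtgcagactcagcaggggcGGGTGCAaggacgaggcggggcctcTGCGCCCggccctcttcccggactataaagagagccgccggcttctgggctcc
MT2A, chr16:56608334-56608583, plus strand: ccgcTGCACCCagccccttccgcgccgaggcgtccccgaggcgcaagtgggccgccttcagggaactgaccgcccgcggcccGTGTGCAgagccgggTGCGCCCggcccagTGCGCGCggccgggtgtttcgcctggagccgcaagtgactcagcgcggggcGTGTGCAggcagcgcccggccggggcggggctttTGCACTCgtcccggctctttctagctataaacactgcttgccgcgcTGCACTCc
BNIP3, chr10:131981924-131982173, minus strand: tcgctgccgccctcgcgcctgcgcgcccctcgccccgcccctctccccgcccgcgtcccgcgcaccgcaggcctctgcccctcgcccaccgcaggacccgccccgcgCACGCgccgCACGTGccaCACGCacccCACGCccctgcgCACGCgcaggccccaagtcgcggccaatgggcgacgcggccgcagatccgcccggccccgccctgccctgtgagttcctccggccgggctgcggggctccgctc
ANKRD37, chr4:185396591-185396840, plus strand: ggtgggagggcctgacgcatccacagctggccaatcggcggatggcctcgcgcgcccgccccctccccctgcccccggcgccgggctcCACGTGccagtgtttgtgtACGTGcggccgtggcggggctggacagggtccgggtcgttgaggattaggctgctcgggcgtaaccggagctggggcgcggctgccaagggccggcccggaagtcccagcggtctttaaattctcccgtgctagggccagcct
These stretches held 1, 4 and 7 matches to the metal response element in SLC30A1, MT1X and MT2A, and 6 and 3 matches to the hypoxia core in BNIP3 and ANKRD37. In promoters of 300 bases, which add the first 50 bases of the transcript, the metal response element was found in 4 of the 5 zinc genes with a shared change that had a promoter in the table, in 9 of 19 genes (47.4%) of the whole zinc list and in 29.3% of all 27305 promoters. The hypoxia core was found in 9 of 11 hypoxia genes with a shared change, in 20 of 24 genes (83.3%) of the hypoxia list and in 48.4% of all promoters. Over all genes with a shared rise and a promoter in the table, these shares were 36.3% and 64.5%, against 39.7% and 61.8% over the shared falls and 35.0% and 56.4% over all measured genes. A match is a short string of letters and not evidence of binding.

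The averaged three-dimensional state differed from the monolayer at 4898 genes, 2017 of them higher (10.2% of all genes) and 2881 lower (14.6%), by limma with Benjamini-Hochberg adjustment over all 54613 probe sets. A change was called shared where the average and each state by itself passed an adjusted p of 0.05 in the same direction. By this rule 631 genes rose (3.19%) and 1134 fell (5.73%), while 434 genes were higher in spheres and lower in xenografts than in the monolayer (2.19%), and 249 were the reverse (1.26%). Both comparisons use the same 3 adherent arrays, so a deviation of the adherent mean moves them together. The median log2 change of the shared rises was 0.66 in spheres and 0.53 in xenografts, and that of the shared falls was -0.67 and -0.59, against -0.04 and 0.08 over all genes. A change of at least 2-fold in both states was seen for 41 shared rises (0.207% of genes) and 94 shared falls (0.475%). The excess of falls depended on the scaling: rises made up 35.8% of the shared changes as deposited, 50.5% after quantile normalization (830 rises and 814 falls) and 26.9% after median centring (503 and 1366). Likewise, 41.2% of the genes called in the average were higher as deposited, 50.1% after quantile normalization and 33.0% after median centring. Without adherent replicate 2, only 396 rises and 702 falls were called, and without adherent replicate 3 the falls numbered 755. List counts from a fit without 1 array, given below, stand beside the totals of that fit and not beside the shares as deposited. The opposite changes, 683 in all, numbered 377, 398 and 362 without adherent replicate 1, 2 and 3.

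**Figure D1:**
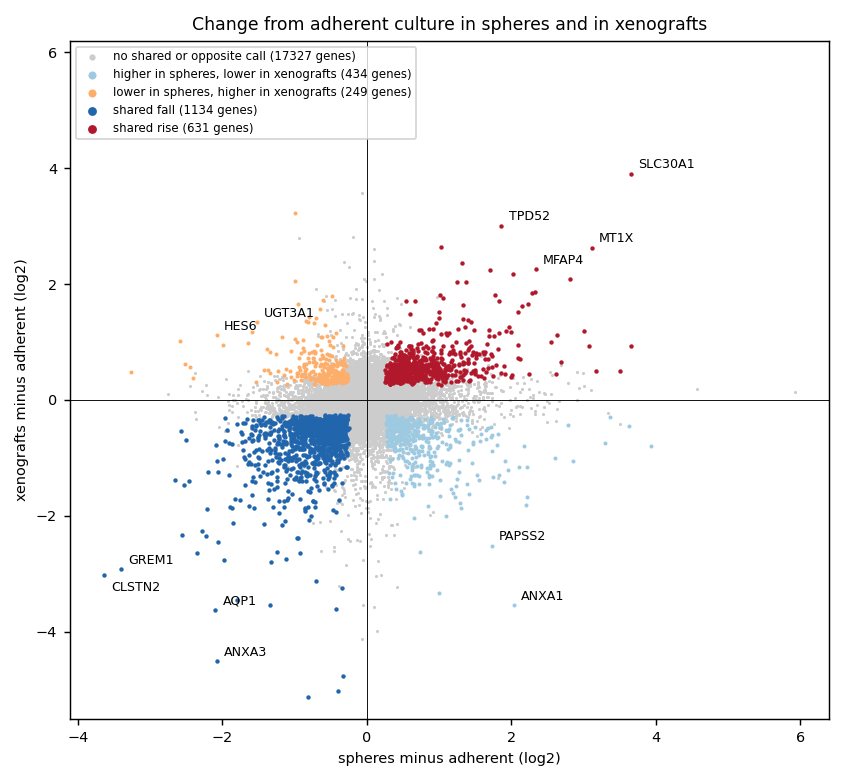
Log2 change from the adherent mean in spheres (horizontal axis) and in xenografts (vertical axis), 1 point per gene. Red points are the 631 shared rises, dark blue points the 1134 shared falls, and light blue and orange points the genes called in opposite directions; both axes subtract the same 3 adherent arrays.

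The labelled cell type was checked first. The myogenic factors MYOD1 and MYOG, the fetal receptor FGFR4 and PAX3, which mark FP-RMS cells, had mean levels of 7.74 or more in each group. DES and CDH15 completed a list of 6 such markers. Of the 6, 3 were called lower in the average (14.6% of all genes) and 0 higher, with a median averaged log2 change of -0.303. Summed over the 6 on the linear scale, arrays ran from 6884 to 7431 in adherent cells, from 5839 to 6106 in spheres and from 6923 to 7634 in xenografts. The arrays carry human probes, and 10 markers of fibroblasts and stroma summed to 1475 to 1579 in adherent cells, 1644 to 1943 in spheres and 1827 to 3010 in xenografts. Of these 10, 5 were called higher and 1 lower in xenografts than in the monolayer, against 12.6% and 14.3% of all genes. LUM averaged 4.30 in the monolayer, 4.11 in spheres and 7.11 in tumors. Of 9 measured leukocyte markers, 1 was called higher in xenografts and 0 lower, and PTPRC averaged 2.62, 2.45 and 2.62 in the 3 groups. Markers of endothelial cells (sums of 189 to 199, 190 to 215 and 206 to 247 in the 3 groups), leukocytes (173 to 185, 167 to 183 and 209 to 241), blood (153 to 163, 148 to 159 and 183 to 195), adipocytes (163 to 180, 173 to 186 and 200 to 203) and Schwann cells (99 to 106, 92 to 102 and 114 to 123) stayed low. Each of these sums was nevertheless higher on every xenograft array than on any adherent array. In xenografts, 2 of 10 endothelial, 2 of 5 blood, 1 of 8 adipocyte and 0 of 3 Schwann cell markers were called higher, against 12.6% of all genes. Of all marker genes, only DES, PDGFRB and MB had a shared fall and ROBO4 a shared rise. The 3′ to 5′ difference of the ACTB control, a sign of RNA integrity, averaged 2.39 (SD 0.30) over the 3 adherent arrays, 3.20 (SD 0.09) over the sphere arrays and 2.48 (SD 0.23) over the xenograft arrays (exact permutation test of the adherent arrays against the other 6, two-sided p = 0.167, where the smallest possible p is 0.0119). That test pools spheres with xenografts, and every sphere array (3.15 to 3.31) lay above every other array (2.07 to 2.75). The same difference for GAPDH averaged 0.54, 0.62 and 0.53 in that group order. Mean hybridisation controls were 11.28 to 11.31 on xenograft arrays, 10.97 to 10.99 on adherent arrays and 10.95 to 11.18 on sphere arrays. Mean poly-A controls were 7.79 to 8.61, 7.26 to 7.6 and 7.05 to 7.46, respectively. Both were highest on the xenograft arrays. The part of RNA integrity, hybridisation and stroma in the changes below was not tested.

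Zinc handling held the strongest shared rises. SLC30A1, which moves zinc out of the cytoplasm, stood at 5.69, 5.97 and 5.63 on the adherent arrays, at 9.21, 9.44 and 9.62 in spheres, and at 9.64, 9.94 and 9.44 in xenografts. Every array of both three-dimensional states lay more than 3 log2 units above every adherent array. Its averaged log2 change was 3.78 (SE 0.13), 13.7-fold (limma, adjusted p = 5.53e-08), and spheres and xenografts did not differ beyond the arrays' spread (xenografts minus spheres 0.25, 95% interval -0.08 to 0.58, adjusted p = 0.203). A second probe set of SLC30A1 rose by 3.40 and 3.08, while the dimmest of its 3 probe sets was not called.

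MT1X and MT2A encode metallothioneins, which buffer zinc and copper. MT1X stood at 7.80, 7.68 and 7.84 in adherent cells, at 10.84, 10.95 and 10.86 in spheres and at 10.05, 10.65 and 10.48 in xenografts. MT2A stood at 8.98, 8.90 and 9.10 in adherent cells, at 11.81, 11.84 and 11.76 in spheres and at 10.79, 11.26 and 11.19 in xenografts. Both genes had their highest values in spheres and intermediate values in xenografts, with no overlap between the 3 groups, and xenografts were lower than spheres by 0.49 for MT1X (adjusted p = 0.0151) and by 0.72 for MT2A (adjusted p = 0.000749). Of 26 measured zinc genes, 7 had a shared rise, against 3.19% of all genes, namely SLC30A1, MT2A, MT1X, MT1H, MT1F, MT1G and MT1E, and 1 had a shared fall, the importer SLC39A10 (log2 change -1.58 in spheres and -1.33 in xenografts). The median of the list was 0.05, against 0.03 over all genes. The metallothionein genes are close to identical in sequence and were measured by probe sets prone to cross-hybridisation, so which of them rose is uncertain, and once such probe sets were set aside SLC30A1 was the only shared rise called in the list. MT1HL1, a metallothionein-like gene outside the list, rose by 2.22 in spheres and 1.65 in xenografts, with the same uncertainty.

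**Figure D2:**
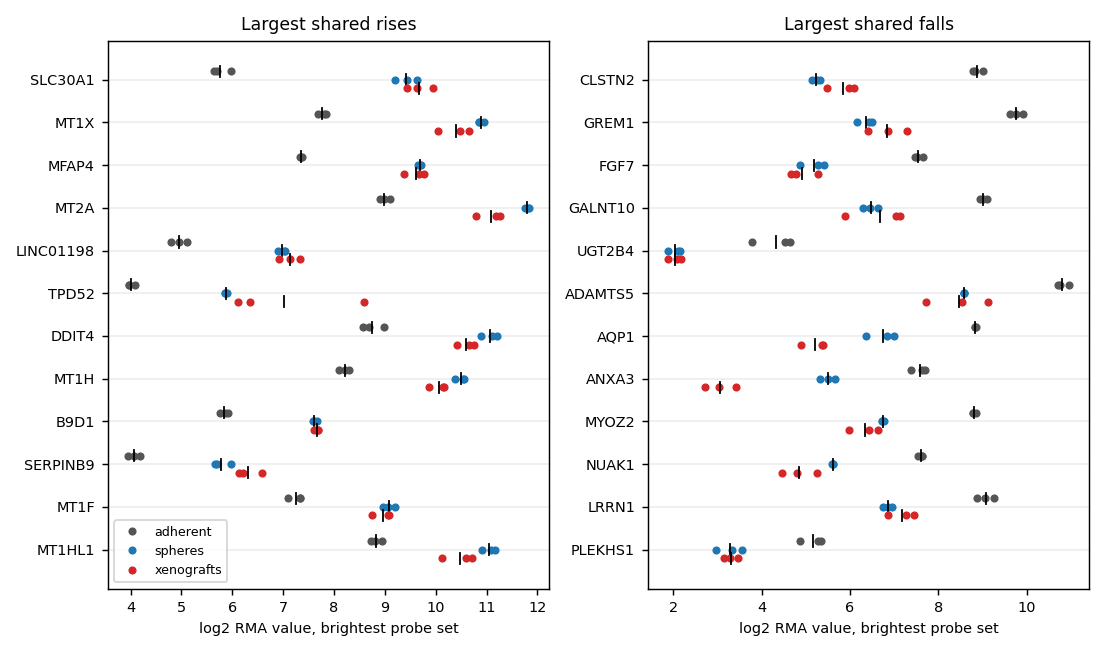
Log2 RMA values on each array for the 12 largest shared rises (left) and the 12 largest shared falls (right), ranked by the smaller of the 2 log2 changes among genes whose adherent arrays lie apart from the other 6. Points are arrays, black bars are group means (n = 3); xenograft replicate 1 stands apart from the other xenografts at TPD52.

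Of the remaining largest rises, MFAP4, a microfibril-associated glycoprotein of the matrix, stood at 7.34, 7.35 and 7.36 in adherent cells, at 9.69, 9.72 and 9.66 in spheres and at 9.38, 9.68 and 9.76 in xenografts. The rise was 4.92-fold on average (log2 change 2.30, SE 0.09, adjusted p = 1.40e-07) and its size did not differ beyond the spread (-0.08, 95% interval -0.31 to 0.15, adjusted p = 0.561). B9D1, a protein of the base of the primary cilium, rose by 1.77 in spheres and 1.81 in xenografts, and all 3 of its probe sets were shared rises. SERPINB9, an inhibitor of granzyme B, rose by 1.71 and 2.25, and the noncoding RNA LINC01198 by 2.03 and 2.17. TPD52, a vesicle trafficking protein, stood at 3.97, 4.08 and 3.98 in adherent cells and at 5.90, 5.85 and 5.86 in spheres, but at 8.58, 6.36 and 6.11 in xenografts, so 1 tumor stood far above the others. Its other 4 probe sets were not called, and averaging all probe sets of the gene ended the shared call.

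The hypoxia response held 11 shared rises among 27 measured genes, against 3.19% of all genes, and 1 shared fall, STC2, which encodes a secreted glycoprotein (-0.54 in spheres and -0.65 in xenografts). The median averaged log2 change of the list was 0.56. DDIT4, an inhibitor of the growth kinase complex mTORC1, stood at 8.57, 8.69 and 8.98 in adherent cells, at 10.90, 11.21 and 11.11 in spheres and at 10.41, 10.75 and 10.66 in xenografts, a rise of 4.25-fold on average (log2 change 2.09, SE 0.12, adjusted p = 8.90e-07). VEGFA, which draws in blood vessels, stood at 7.78, 7.81 and 8.01 in adherent cells, at 10.22, 10.66 and 10.63 in spheres and at 9.178, 9.001 and 8.801 in xenografts. The rise of VEGFA was larger in spheres (2.64) than in xenografts (1.12; difference -1.51, adjusted p = 8.24e-06). BNIP3, which targets mitochondria for autophagy, went the other way, at 8.82, 8.87 and 8.73 in adherent cells, 9.91, 10.09 and 10.16 in spheres and 11.07, 10.62 and 10.82 in xenografts. Its rise was larger in xenografts by 0.78 (adjusted p = 0.000361), and both of its probe sets were shared rises. ANKRD37, a short ankyrin repeat protein induced by HIF-1, rose by 2.10 and 1.51. MXI1, an antagonist of MYC, rose by 1.51 and 0.73, KDM3A, a histone demethylase that needs oxygen, by 1.40 and 0.64, EGLN1, the oxygen sensor that marks HIF-1 alpha for destruction, by 0.39 and 0.80, and P4HA1, which hydroxylates collagen, by 1.72 and 0.79. When probe sets prone to cross-hybridisation were set aside, 7 rises were called in the list.

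Of 21 measured genes of glycolysis, 3 rose in both states, against 3.19% of all genes, and 1 fell, against 5.73%. Of these rises, PDK1 and SLC2A1 are also members of the hypoxia list. PDK1, a kinase that inhibits pyruvate dehydrogenase, rose by 1.23 in spheres and 1.00 in xenografts, at all 3 of its probe sets. HK2, which traps glucose in the cell, rose by 0.87 and 0.71 at 1 of its 3 probe sets. The glucose carrier SLC2A1 rose by 0.98 and 0.52 at its brighter probe set and was not called at the other. PDK3, a related kinase, fell by 0.78 and 0.54, a call lost without adherent replicate 2 or 3 (xenografts -0.49, adjusted p = 0.0586 without replicate 3). The median of the list was 0.05. Oxidative phosphorylation, with a median of -0.09 over 28 genes, had 1 shared rise (NDUFB5) and 1 shared fall (SDHA), neither of which kept its call in every fit without 1 array (NDUFB5, xenografts 0.31, adjusted p = 0.0702 without adherent replicate 1; SDHA, xenografts -0.31, adjusted p = 0.0729 without adherent replicate 3).

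**Figure D3:**
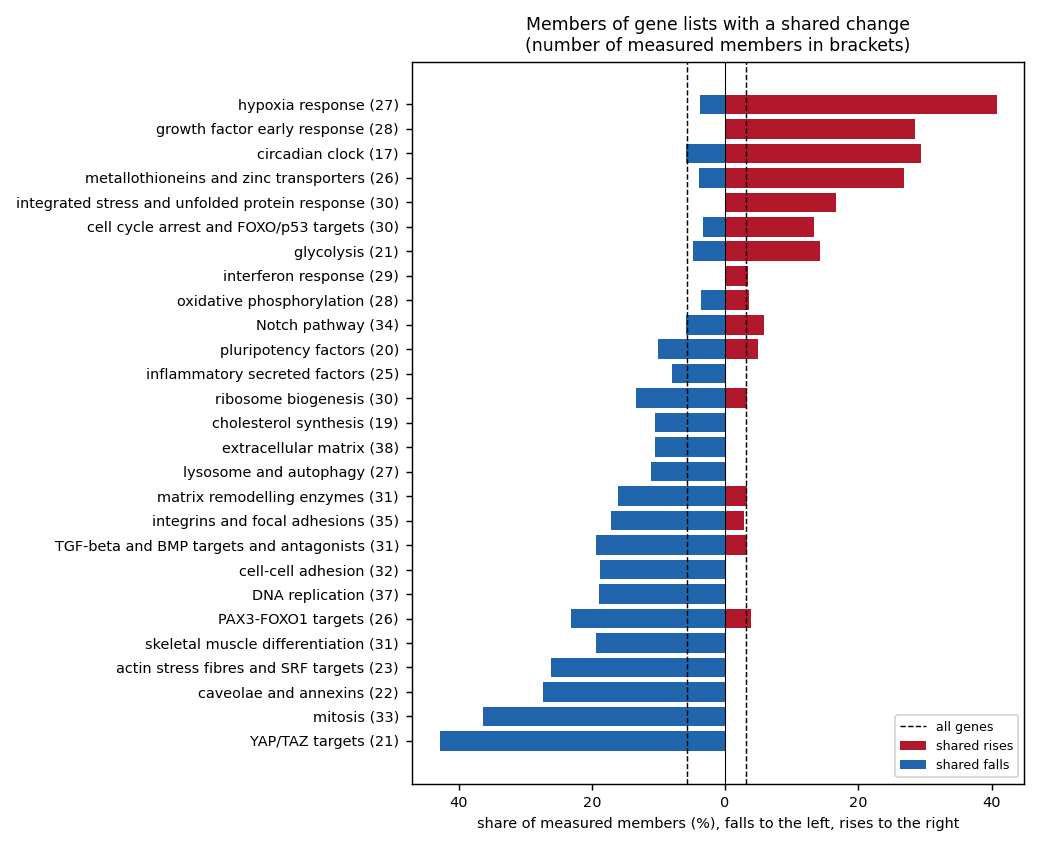
Share of the measured members of each gene list with a shared rise (red, to the right) or a shared fall (blue, to the left), in percent of the measured members given in brackets. Dashed lines mark the shares over all genes (3.19% and 5.73%); hypoxia response genes reach furthest to the right and YAP/TAZ targets furthest to the left.

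YAP/TAZ targets had shared falls at 9 of 21 measured genes, against 5.73% of all genes, and 0 rises. This was the largest share among the lists as deposited, but mitotic genes had a larger one after median centring (17 of 33) and with probe sets averaged (16 of 33, where YAP/TAZ targets had 6 of 21). Their median averaged log2 change was -0.67. AMOTL2, which binds YAP at cell junctions, stood at 8.64, 8.83 and 8.62 in adherent cells, at 6.62, 6.94 and 7.06 in spheres and at 7.54, 6.68 and 6.73 in xenografts. LATS2, the kinase that inactivates YAP, stood at 10.45, 10.51 and 10.33 in adherent cells, at 9.36, 9.30 and 9.35 in spheres and at 8.69, 8.74 and 8.76 in xenografts. AJUBA, a scaffold that holds LATS kinases in check, stood at 10.56, 10.58 and 10.48 in adherent cells, at 8.40, 8.47 and 8.52 in spheres and at 9.78, 9.39 and 9.27 in xenografts. All 3 genes act on the pathway that controls them, and no adherent array overlapped with any other. LATS2 fell at 2 of its 4 probe sets, and averaging them ended its shared call. The fall of LATS2 at its brightest probe set was larger in xenografts (difference -0.61, adjusted p = 0.000209) and that of AJUBA larger in spheres (1.01, adjusted p = 6.14e-05), while that of AMOTL2 did not differ beyond the spread (0.11, adjusted p = 0.684). ANKRD1, a nuclear protein of strained muscle, fell by 0.97 and 1.03 at low levels. The receptor AXL fell by 0.40 in spheres and by 5.02 in xenografts, so a shared call can join changes of very unequal size. The canonical targets CCN1 (-0.47 and -1.25) and CCN2 (0.92 and -1.93) had no shared change. Without adherent replicate 2 the list held 7 falls, and 6 when the probe sets of a gene were averaged.

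Integrins and focal adhesion genes had 6 shared falls and 1 shared rise among 35, where 5.73% of all genes fell and 3.19% rose. ITGA1, the alpha chain of a collagen receptor, stood at 6.76, 6.63 and 6.88 in adherent cells, at 5.17, 5.18 and 5.30 in spheres and at 6.09, 5.65 and 5.94 in xenografts. ITGB5, a vitronectin receptor chain, fell by 0.61 and 0.90, and ACTN1, which bundles actin at adhesions, by 0.86 and 0.67. ITGA4, TNS3 and FERMT2 were the other falls. TLN1, which activates integrins, rose by 0.80 and 0.57 at 1 of its 3 probe sets, and the rise was lost with their mean. Of 23 actin and SRF target genes, 6 fell and 0 rose: CNN3 and CNN2, which are calponins, CORO1C, DIAPH1, a nucleator of actin filaments, and the non-muscle myosins MYH9 and MYH10. DIAPH1 stood at 9.51, 9.63 and 9.56 in adherent cells, at 8.87, 8.88 and 8.98 in spheres and at 8.79, 8.98 and 9.02 in xenografts, a fall by 0.65 on average (SE 0.08, adjusted p = 0.000185). A second probe set of DIAPH1 was also a shared fall (-0.50 and -0.62), while the others were not called (averaged changes -0.08 and 0.05). Its shared call ended once probe sets prone to cross-hybridisation were set aside. Without adherent replicate 2, each of these lists held 4 falls.

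Caveolae and annexins, which bind and shape the plasma membrane, had 6 shared falls among 22, against 5.73% of all genes, and 0 rises. ANXA3 stood at 7.70, 7.38 and 7.63 in adherent cells, at 5.51, 5.32 and 5.66 in spheres and at 2.72, 3.42 and 3.04 in xenografts. The groups were apart, and the fall was larger in xenografts (difference -2.44, adjusted p = 9.02e-07). The muscle caveolin CAV3 fell by 1.22 and 1.95 and the muscle cavin CAVIN4 by 1.51 and 1.11. CAVIN2 fell by 0.51 and 0.84, a call that was lost without adherent replicate 2 or 3 or without sphere replicate 1 or 3 (spheres -0.42, adjusted p = 0.103 without adherent replicate 3). ANXA2 and ANXA5 completed the falls, and the list held 4 falls without adherent replicate 2 or 3 or sphere replicate 1 or 3. ANXA1 was called in opposite directions.

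**Figure D4:**
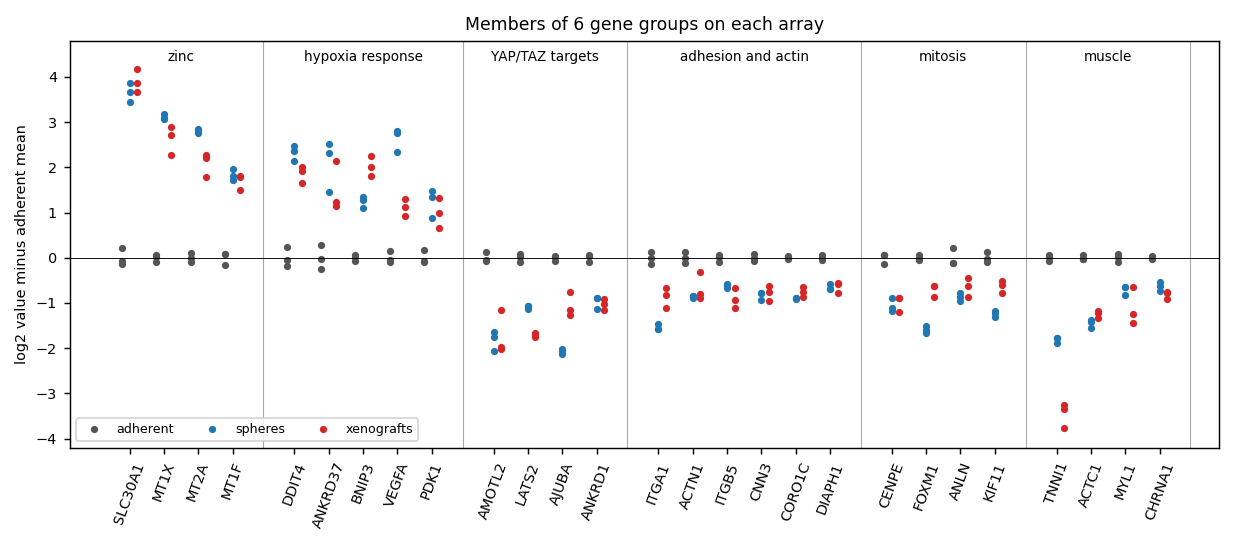
Log2 value on each array minus the adherent mean, for members of 6 gene groups; points are arrays (n = 3 per group). The genes shown were picked from those with a shared change, so their side of 0 follows from that choice. The zinc and hypoxia genes shown lie above 0 in both three-dimensional states and those of the other groups below 0. TNNI1 lies lowest, in xenografts. Shared changes against these directions, such as the falls of SLC39A10 and STC2 and the rise of TLN1, are not shown.

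Of 38 matrix proteins, 4 fell (5.73% of all genes had a shared fall) and 0 rose, and the count of falls ran from 2 (without adherent replicate 2) to 8 over the fits that left out 1 array. COL4A2, a chain of basement membrane collagen, stood at 12.20, 12.30 and 12.17 in adherent cells, at 11.78, 11.84 and 11.80 in spheres and at 11.09, 11.25 and 11.23 in xenografts. ECM1 fell by 0.51 and 1.12. FBN2 (-0.56 and -0.63) and LAMA4 (-0.52 and -1.03) fell at 1 probe set each. A dimmer probe set of FBN2 changed the other way (2.03 in spheres and 0.27 in xenografts, averaged change 1.15, adjusted p = 0.000747), and for both genes the shared call ended when probe sets were averaged. The call of FBN2 was lost without adherent replicate 2 (spheres -0.44, adjusted p = 0.0771), and that of LAMA4 without adherent replicate 2 or 3 or sphere replicate 1 or 2 (spheres -0.39, adjusted p = 0.144 without adherent replicate 2). Of 31 remodelling enzymes and inhibitors, 5 fell and 1, P4HA1, rose. ADAMTS5, which cleaves aggrecan and versican, stood at 10.70, 10.96 and 10.75 in adherent cells, at 8.58, 8.58 and 8.59 in spheres and at 7.71, 9.12 and 8.54 in xenografts, and all 4 of its probe sets were shared falls. The inhibitor TIMP2 fell by 1.38 and 1.43 at 2 of its 3 probe sets, and LOXL2, which crosslinks collagen, by 1.15 and 1.85 at 1 of 4. MMP14, an activator of other metalloproteinases, and ADAM19 were the remaining falls.

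Cell-cell adhesion genes fell at 6 of 32 measured genes, against 5.73% of all genes, and rose at 0. CDH2, N-cadherin, stood at 7.35, 7.76 and 7.47 in adherent cells, at 6.63, 6.90 and 6.67 in spheres and at 6.53, 6.90 and 6.67 in xenografts, a fall by 0.81 on average (SE 0.12, adjusted p = 0.000436) that did not differ in size beyond the spread (difference -0.04, adjusted p = 0.851). PKP2, a desmosome protein, fell by 0.78 and 2.01 and the junction protein JAM3 by 0.46 and 0.91. NCAM1 fell by 0.39 and 0.72, and its call in spheres was lost without adherent replicate 2 or sphere replicate 2 (spheres -0.35, adjusted p = 0.0535 without the latter). PKP2, JAM3 and NCAM1 had a shared fall at their brightest probe set alone. GJC1, a gap junction channel, and L1CAM were the remaining falls. The list held 3 falls without adherent replicate 2, a fit in which 702 of all 19775 genes had a shared fall.

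The largest fall belonged to CLSTN2, a cadherin-like membrane protein of neurons. It stood at 8.78, 9.02 and 8.82 in adherent cells, at 5.13, 5.24 and 5.33 in spheres and at 5.47, 5.98 and 6.08 in xenografts, an averaged log2 change of -3.33 (SE 0.13, adjusted p = 1.34e-07), and both of its probe sets fell. GREM1, a secreted antagonist of BMPs, stood at 9.76, 9.91 and 9.62 in adherent cells, at 6.168, 6.498 and 6.435 in spheres and at 6.41, 7.28 and 6.85 in xenografts. Its averaged change was -3.16 (SE 0.16, adjusted p = 6.37e-07), at both probe sets. The growth factor FGF7 stood at 7.46, 7.65 and 7.52 in adherent cells, at 5.28, 4.86 and 5.41 in spheres and at 4.66, 5.28 and 4.78 in xenografts, at 1 of its 3 probe sets. The water channel AQP1 fell by 2.10 and 3.62, and the glycosyltransferase GALNT10 by 2.55 and 2.34. NUAK1, a kinase related to AMPK, fell by 1.98 and 2.76, and the membrane protein LRRN1 by 2.22 and 1.88. MYOZ2, a muscle Z-disc protein, had log2 changes of -2.064 and -2.455. PLEKHS1 (-1.87 and -1.86) and UGT2B4 (-2.28 and -2.27) fell from low adherent levels of 5.16 and 4.32.

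GREM1 was 1 of 6 shared falls among 31 ligands, antagonists and targets of the TGF-beta and BMP pathways, of which 1 rose. BMP4 stood at 8.88, 8.51 and 8.69 in adherent cells, at 7.70, 7.67 and 7.77 in spheres and at 7.19, 7.84 and 7.88 in xenografts. BMP7 fell by 1.203 and 0.937 at its brightest probe set, and its other probe sets were not called in the average. Ligands (BMP4, BMP7 and TGFB2), BMP antagonists (GREM1 and NOG) and LTBP1, which stores latent TGF-beta in the matrix, therefore fell together. BAMBI, a decoy receptor, rose by 1.44 and 0.94, a call that each omission of 1 adherent array ended (xenografts 0.89, adjusted p = 0.0661 without replicate 1). The falls numbered 4 without adherent replicate 1, 2 or 3, without sphere replicate 1 or 3, or without xenograft replicate 2.

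Genes of cell division fell in both states at part of their lists. Of 33 mitotic genes, 12 fell in both, against 5.73% of all genes, and 0 rose. CENPE, a kinetochore motor, stood at 10.60, 10.61 and 10.41 in adherent cells, at 9.64, 9.36 and 9.42 in spheres and at 9.35, 9.64 and 9.64 in xenografts. FOXM1, a transcription factor that drives mitotic genes, stood at 9.894, 10.001 and 9.931 in adherent cells, at 8.43, 8.35 and 8.28 in spheres and at 9.06, 9.31 and 9.33 in xenografts. The fall of CENPE did not differ in size beyond the spread (0.07, 95% interval -0.19 to 0.33, adjusted p = 0.654), whereas that of FOXM1 was larger in spheres (0.88, adjusted p = 3.43e-05). KIF11, the motor that separates spindle poles, fell by 1.23 and 0.63, ANLN, of the cleavage furrow, by 0.88 and 0.65, and MKI67, the Ki-67 antigen, by 0.69 and 0.36. Without adherent replicate 2, 6 mitotic falls were called, as many as without probe sets prone to cross-hybridisation, and 7 after quantile normalization, against 17 after median centring and 16 with probe sets averaged. Of 37 replication genes, 36 fell in spheres (16.3% of all genes) but 7 in xenografts (14.3% of all genes), and 7 were shared falls: ORC1, POLA1, POLE, RFC3, RRM1, RRM2 and FEN1. RRM1, the large subunit of the reductase that makes deoxynucleotides, stood at 11.833, 12.001 and 11.821 in adherent cells, at 10.69, 10.88 and 10.76 in spheres and at 11.48, 11.54 and 11.32 in xenografts. Its fall was larger in spheres (difference 0.67, adjusted p = 0.000308). POLA1 was no longer called in xenografts without adherent replicate 2 (-0.37, adjusted p = 0.0675), and the list then held 3 shared falls, against 4 after quantile normalization and 10 both after median centring and with probe sets averaged. In bulk samples fewer cycling cells and less RNA per cell cannot be told apart.

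Of 30 genes of cell cycle arrest and of FOXO and p53 targets, 4 rose and 1 fell. ARRDC3, an alpha-arrestin, stood at 6.26, 6.44 and 6.2 in adherent cells, at 9.84, 9.95 and 10.08 in spheres and at 7.59, 7.23 and 6.88 in xenografts, so its rise was shared but larger in spheres (difference -2.72, adjusted p = 2.98e-07). BTG1, an antiproliferative protein, rose by 1.29 and 0.82, and CDKN1B, which encodes the inhibitor p27, by 0.72 and 0.44. CCNG2 rose by 1.08 and 0.53, a call lost without adherent replicate 1 or 3 or xenograft replicate 1 (xenografts 0.49, adjusted p = 0.0833 without adherent replicate 3). TP53INP1 fell by 0.46 and 0.67, a call lost without any 1 of the adherent arrays or sphere replicate 1 or 2 (spheres -0.40, adjusted p = 0.1 without sphere replicate 2). The list held 2 rises without adherent replicate 1 or 3. Ribosome biogenesis genes fell at 4 of 30 (POLR1A, UTP4, UTP20 and NOP2) and rose at 1. At the brightest of its 3 probe sets, POLR1A, the largest subunit of RNA polymerase I, stood at 8.85, 8.90 and 8.75 in adherent cells, at 7.93, 7.78 and 7.80 in spheres and at 7.90, 8.11 and 7.97 in xenografts. A second probe set of POLR1A was a shared rise (0.35 and 0.43), the third was not called, and averaging the 3 ended the shared call, so the direction of POLR1A is uncertain. NOB1, which trims the small subunit RNA, rose by 0.65 and 0.46, a call lost without adherent replicate 1 or 2 or xenograft replicate 3 (xenografts 0.38, adjusted p = 0.0686 without adherent replicate 1).

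Growth factor early response genes, which follow ERK signalling, rose at 8 of 28, against 3.19% of all genes, and fell at 0. SPRY4, a feedback inhibitor of receptor tyrosine kinases, stood at 6.90, 7.13 and 6.85 in adherent cells, at 7.96, 7.83 and 7.84 in spheres and at 7.84, 8.10 and 8.64 in xenografts. DUSP6, the phosphatase that switches off ERK, stood at 9.69, 9.91 and 9.87 in adherent cells, at 10.94, 10.97 and 10.98 in spheres and at 10.65, 10.55 and 10.64 in xenografts. SPRY1 (0.51 and 0.77), DUSP4 (0.45 and 0.73) and the ETS factor ETV5 (1.09 and 0.58) also rose, so feedback inhibitors made up 4 of the 8. The transcription factors EGR1 (2.55 and 0.99), FOS (0.91 in both) and MYC (1.16 and 0.31) were less stable. EGR1 lost its call in xenografts without any 1 of the adherent arrays (0.97, adjusted p = 0.0882 without replicate 2), FOS without adherent replicate 2 or 3 or sphere replicate 2 (0.85, adjusted p = 0.0611 without adherent replicate 3), and MYC without any 1 of the adherent arrays, sphere replicate 2 or 3 or xenograft replicate 2 (0.22, adjusted p = 0.112 without the last). The list held 4 rises without adherent replicate 2 and 5 when probe sets prone to cross-hybridisation were set aside.

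Genes of the integrated stress response and of the unfolded protein response, which slow translation and restore protein folding, rose in both states at part of their list. Of 30 genes, 22 rose in spheres (13.5% of all genes) and 6 in xenografts (12.6% of all genes), and 5 were shared rises, with 0 shared falls. DDIT3, the transcription factor CHOP, stood at 8.90, 8.68 and 9.19 in adherent cells, at 12.10, 11.81 and 11.88 in spheres and at 9.74, 10.34 and 10.26 in xenografts. The groups did not overlap, and the rise of DDIT3 was larger in spheres (difference -1.82, adjusted p = 9.25e-06). XBP1, a factor of the unfolded protein response, rose by 1.10 and 0.38. TRIB3 rose by 3.18 in spheres and by 0.50 in xenografts, where it was not called without adherent replicate 1 or 2 or xenograft replicate 2 or 3 (0.43, adjusted p = 0.120 without adherent replicate 2). VLDLR, a lipoprotein receptor, rose by 1.68 and 0.71 with overlap between adherent and xenograft arrays, and lost its call in xenografts without any 1 of the adherent arrays or xenograft replicate 1 or 2 (0.49, adjusted p = 0.114 without the last). The fifth rise was DDIT4, and the list held 3 rises without adherent replicate 1 or 2 or without probe sets prone to cross-hybridisation, and up to 10 without another array.

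Muscle differentiation genes had 6 shared falls among 31, against 5.73% of all genes, and 0 shared rises. TNNI1, troponin I of slow muscle, stood at 11.38, 11.26 and 11.34 in adherent cells, at 9.45, 9.56 and 9.56 in spheres and at 7.56, 8.07 and 7.97 in xenografts. ACTC1, cardiac alpha-actin, stood at 12.75, 12.85 and 12.75 in adherent cells, at 11.24, 11.40 and 11.37 in spheres and at 11.60, 11.55 and 11.45 in xenografts. The fall of TNNI1 was larger in xenografts (difference -1.65, adjusted p = 1.90e-06) and that of ACTC1 did not differ beyond the spread (0.20, adjusted p = 0.103). MYL1 and MYL4, myosin light chains, fell by 0.71 and 1.11 and by 0.60 and 1.43, CHRNA1, a chain of the acetylcholine receptor, by 0.64 and 0.81, and DES, desmin, by 0.39 and 0.51. MYOD1 and MYOG had no shared change. ACTA1, skeletal alpha-actin, was lower in spheres by 1.00 and higher in xenografts by 3.22. Markers of adult muscle summed to 421 to 464 in adherent cells, 356 to 386 in spheres and 373 to 518 in xenografts, where MYH4 averaged 4.70 against 2.30 in adherent cells.

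Of 26 PAX3-FOXO1 targets, 6 fell and 1 rose, beside 5.73% and 3.19% of all genes. DCX, a microtubule protein of migrating neurons, stood at 11.94, 12.14 and 11.85 in adherent cells, at 10.28, 10.76 and 10.47 in spheres and at 10.39, 10.71 and 10.86 in xenografts. The potassium channel KCNN3 fell by 1.91 and 0.75, the receptor ALK by 1.43 and 0.30, JARID2, a Polycomb partner, by 0.50 and 0.54, and GREM1 is also on this list. FOXO1, whose probe sets can also read the fusion transcript, fell by 0.53 and 0.56. NHLH1 rose by 0.44 and 0.34, a call that was lost in the fits without adherent replicate 1, sphere replicate 3 or xenograft replicate 2 or 3. Without probe sets prone to cross-hybridisation, the list held 2 falls, a share near that of all genes.

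For the stem cell and Notch genes that the study set out to measure, shared changes were few. SOX2 stood at 7.13, 7.29 and 7.46 in adherent cells, at 7.96, 8.69 and 8.41 in spheres and at 7.52, 7.60 and 7.59 in xenografts. All 6 three-dimensional arrays lay above the adherent arrays, the averaged change was 0.67 (SE 0.14, adjusted p = 0.00444), and the change passed the test in spheres (1.06, adjusted p = 0.000369) but not in xenografts (0.28, adjusted p = 0.231). The other probe sets of SOX2 were not called in the average (0.57, 0.07 and 0.15, adjusted p = 0.0694, 0.744 and 0.52). At its brighter probe set, NANOG averaged 3.84 in the monolayer, 3.91 in spheres and 4.01 in tumors (averaged change 0.13, adjusted p = 0.549). Its dimmer probe set, at a low mean level of 2.88, was higher in the average (0.41, adjusted p = 0.026). The changes there were 0.188 in spheres and 0.625 in xenografts. POU5F1 has no probe set of its own under the rule used here. Of 20 pluripotency factors, MYC rose and LIN28B and DNMT3B fell. LIN28B, which blocks the let-7 microRNAs, stood at 9.69, 9.85 and 9.70 in adherent cells, at 8.82, 8.75 and 8.83 in spheres and at 8.73, 8.83 and 8.64 in xenografts, while DNMT3B, a DNA methyltransferase, was called in xenografts by a narrow margin (-0.31, adjusted p = 0.0446) and lost the call in 8 of the 9 fits without 1 array (up to adjusted p = 0.178, without adherent replicate 2).

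Of 34 Notch pathway genes, 2 rose and 2 fell, near the shares of all genes (3.19% and 5.73%). HEY1, a repressor induced by Notch, stood at 6.737, 6.920 and 7.004 in adherent cells, at 8.26, 8.73 and 8.48 in spheres and at 8.04, 7.12 and 8.01 in xenografts, where replicate 2 lay close to the adherent arrays. HES1, a related repressor, stood at 5.25, 5.46 and 5.57 in adherent cells, at 5.90, 6.27 and 6.11 in spheres and at 7.06, 6.98 and 7.35 in xenografts. The order was opposite, with HEY1 highest in spheres (xenografts minus spheres -0.77, adjusted p = 0.0153) and HES1 highest in xenografts (1.04, adjusted p = 9.49e-05). HEY1 lost its call in xenografts without adherent replicate 1 or 2 or xenograft replicate 1 or 3 (0.69, adjusted p = 0.0628 without the last). HES1 was a shared rise at 1 of its 3 probe sets. A second one was higher in the average (0.81, adjusted p = 0.000639), with changes of 0.29 in spheres and 1.33 in xenografts. The co-activator MAML2 fell by 0.80 and 2.08. The ligand JAG2 fell by 0.40 and 0.33 and lost its call in 8 of the 9 fits without 1 array (xenografts -0.23, adjusted p = 0.146 without xenograft replicate 2). The ligand JAG1 passed the test in the average (0.58, adjusted p = 0.0284) and in spheres (0.65, adjusted p = 0.0264) but not in xenografts (0.51, adjusted p = 0.0802). These values are from its brightest probe set, and its other probe sets were not called in the average. NOTCH3 and NOTCH4 had averaged changes of 0.19 and 0.05 and were not called. RBPJ, the DNA-binding partner of Notch, was not called at its brightest probe set (-0.03, adjusted p = 0.835) or at a second one (-0.24, adjusted p = 0.282), but the dimmest of its 3 probe sets was higher in the average (0.91, adjusted p = 0.00537), with changes of 1.80 in spheres and 0.01 in xenografts. After quantile normalization, 5 of the 34 genes rose, beside 830 of all 19775 genes, so the nearness to the share of all genes depended on the scaling.

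The remaining lists held few shared changes or shared changes in both directions. Their counts, like those of the TGF-beta, arrest, ribosome, stress response and pluripotency lists, stand beside 3.19% of all genes with a shared rise and 5.73% with a shared fall. Clock genes rose at 5 of 17 and fell at 1, BMAL2. BHLHE40, a repressor of the clock that hypoxia also induces, stood at 6.90, 7.19 and 6.96 in adherent cells, at 8.31, 8.92 and 8.89 in spheres and at 8.32, 8.17 and 8.16 in xenografts, and HLF, a PAR-domain activator, rose by 1.82 and 1.16. BHLHE41 (1.66 and 0.96), NFIL3 (1.64 and 0.48) and TEF were the other rises, and the first 2 of these lost their calls in xenografts without adherent replicate 1 (adjusted p = 0.0717 and 0.0739), when the list held 2 rises. Only 1 rise was called without probe sets prone to cross-hybridisation. Lysosome and autophagy genes fell at 3 of 27 (CTSA, LAMP1 and GLA), of which CTSA, a lysosomal protease, fell by 1.11 and 0.72. GLA lost its call without adherent replicate 3 or xenograft replicate 1 or 2 (xenografts -0.35, adjusted p = 0.0918 without the first). Cholesterol synthesis genes fell at 2 of 19, STARD4 (-0.54 and -0.83), which carries cholesterol between membranes, and INSIG1 (-1.74 and -0.56), which lost its call in xenografts without adherent replicate 1 or 2 or xenograft replicate 2 or 3 (-0.40, adjusted p = 0.138 without adherent replicate 2). Inflammatory factors fell at 2 of 25, IL32 (-0.49 and -1.47) and NFKB1 (-0.99 and -0.44), and interferon genes rose at 1 of 29, ISG20 (0.54 and 0.56), which lost its call in 4 of the fits without 1 array (spheres 0.47, adjusted p = 0.0780 without sphere replicate 1).

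Whether a shared change had the same size in both states was tested directly. Xenografts and spheres differed at 236 of the 631 shared rises (37.4%) and at 479 of the 1134 shared falls (42.2%), close to the 44.0% of all genes that differed between these states. Of the rises that differed, 197 were larger in spheres and 39 in xenografts, and of the falls 289 were larger in spheres and 190 in xenografts. Among the 24 genes with the largest shared changes, TPD52, SERPINB9, AQP1, ANXA3 and NUAK1 moved further in xenografts by more than 0.5 on the log2 scale, of which TPD52 did not pass the test (1.15, adjusted p = 0.0739), and MT2A, MT1HL1 and CLSTN2 moved further in spheres by more than 0.5. SLC30A1, MFAP4, B9D1, LINC01198, MT1F, FGF7, GALNT10, UGT2B4, ADAMTS5 and PLEKHS1 did not pass the test, with differences between -0.28 (FGF7) and 0.25 (SLC30A1). GREM1 (0.48, adjusted p = 0.0606) and LRRN1 (0.34, adjusted p = 0.0921) did not pass it either. A difference that misses the threshold does not show equal change. Without adherent replicate 2 or sphere replicate 3, the shared changes that differed in size numbered 429 and 454 in place of 715, and 464 without adherent replicate 3.

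**Figure D5:**
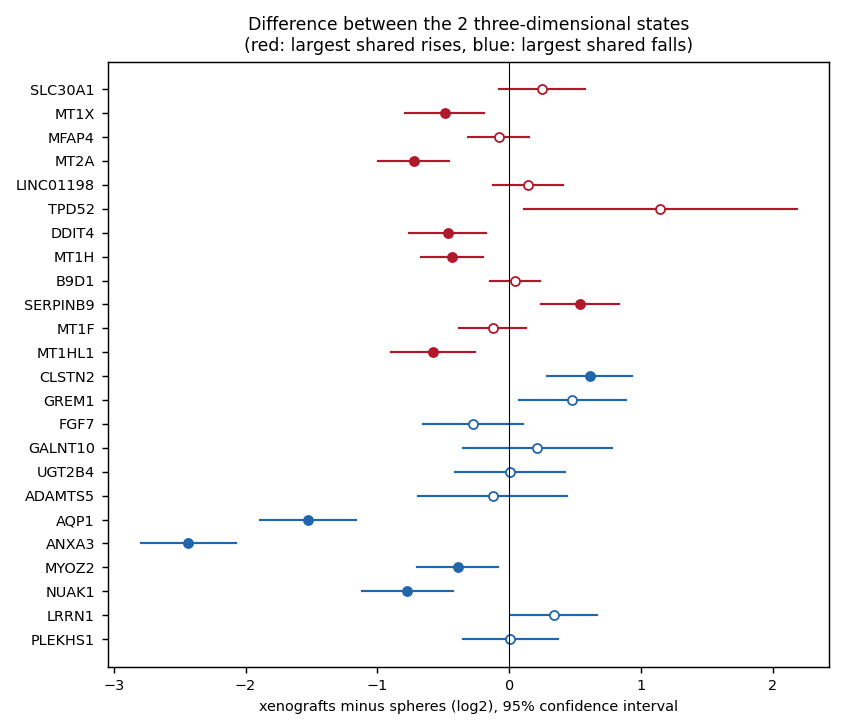
Xenografts minus spheres on the log2 scale for the 12 largest shared rises (red) and 12 largest shared falls (blue), with 95% confidence intervals from limma. Filled points passed an adjusted p of 0.05; for a fall, a value below 0 means that the fall was larger in xenografts, as for ANXA3 and AQP1.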

How the data were processed

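RNA of 9 samples was hybridised to Affymetrix U133 Plus 2.0 arrays. The authors deposited log2 expression values summarised by RMA (version not given in the sources used here), a method that corrects background, normalizes between arrays and summarises the probes of a set. The deposited arrays did not share 1 distribution: upper quartiles ran from 7.02 to 7.09 on the adherent and sphere arrays and from 6.88 to 6.89 on the xenograft arrays. These values were used as deposited. Groups followed the labels. Control probe sets (62) were left out of the tests. limma 3.58.1 in R 4.3.3 fitted 1 coefficient per group to 54613 probe sets (6 residual and 5.44 prior degrees of freedom), with moderated tests and Benjamini-Hochberg adjustment at 0.05. No pseudocount or filter on low values was applied, and the number of arrays limits the precision. Symbols came from the platform annotation: 41091 probe sets had 1 symbol, 1801 several and 11721 none. The brightest probe set, by the mean over the 9 arrays, stood for each gene.

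Genes were named by rule: the 12 largest shared rises and 12 largest shared falls by the smaller of the 2 changes, with adherent arrays apart from the other 6; up to 4 shared members of each list; SOX2, POU5F1, NANOG, HEY1, HES1, JAG1, RBPJ, NOTCH3 and NOTCH4; and 3 opposite changes per direction. Other genes were named as list members or markers. Genes and lists were chosen with earlier results of these data known, so no p-value was adjusted over a list and no list was tested as a set. Replicate numbers were not used to pair arrays in the main fit. Of 9 same-number pairs, 2 had a correlation of deviations over 0.1 (range -0.177 to 0.183), a check too weak to settle whether they were paired. The scripts were tested on simulated data. Alternatives were quantile normalization, median centring, other variance models and call rules, other choices of probe set, a replicate block and leaving out each array.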

Additional observations from a re-analysis of the deposited data

Results flagged for a closer look

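For 8 named genes, all 3 sphere arrays lay on one side of the adherent arrays and all 3 xenograft arrays on the other, and the difference between xenografts and spheres passed limma's test. Of these, ANXA1, PAPSS2, GPAT3, HES6, UGT3A1 and CDH6 were named because their opposite changes were the largest. Their pattern and small p-values therefore follow from that choice. ANXA1, a phospholipid-binding annexin, was higher in spheres by 2.04 and lower in xenografts by 3.54 (xenografts minus spheres -5.58, SE 0.19, adjusted p = 7.05e-09). PAPSS2, which makes the sulfate donor of the cell, differed by -4.25 (SE 0.18, adjusted p = 3.98e-08), and GPAT3, an enzyme of triglyceride synthesis, by -4.02 (SE 0.20, adjusted p = 1.28e-07). In the other direction, HES6, a helix-loop-helix factor of myogenic and neural cells, was lower in spheres by 2.08 and higher in xenografts by 1.11 (difference 3.19, SE 0.10, adjusted p = 6.81e-09). UGT3A1 differed by 2.86 (SE 0.16, adjusted p = 2.27e-07), and CDH6, a cadherin, by 2.78 (SE 0.19, adjusted p = 8.59e-07). Of the Notch genes, NOTCH4 differed by 0.66 (SE 0.12, adjusted p = 0.000954) and RBPJ by -0.40 (SE 0.09, adjusted p = 0.00457). These values are those of the brightest probe set of each gene. The other probe sets of PAPSS2 kept the opposite signs (1.65 in spheres and -0.68 in xenografts, and 0.105 and -0.307). Those of UGT3A1 did too (-0.516 and 1.14, and -0.696 and 0.978). So did those of CDH6 (such as -0.49 and 1.35), except 1 that was above the monolayer in both states (0.27 and 0.86). The other probe sets of ANXA1 (0.586 and 0.126), NOTCH4 (0.069 and 0.283) and RBPJ did not keep opposite signs.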

How the results depend on the processing

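Of the 21 settings, the fit of each comparison on its 2 groups alone gave no averaged change. The others gave 2189 averaged log2 changes of 111 named shared genes. Of these changes, 2121 were still called in the same direction, 63 kept the direction but not the call and 5 turned. Of the genes, 56 were called under every alternative that gave them a value. The replicate block gave 557 shared rises and 1005 shared falls. Of the 9 arrays, 2 were closest to an array of their own number, a check too weak to settle whether the numbers mark pairs. The counts that moved most did so with the call rule: an unadjusted p gave 3095 genes higher, 1031 shared rises, 1280 opposite changes and 1321 shared changes that differ in size, and a change of at least 2-fold gave 184 higher, 260 lower, 41 shared rises, 94 shared falls, 40 opposite changes and 15 that differ in size. Without probe sets prone to cross-hybridisation, 415 shared rises were called. The shared call, which also needs each state to pass, ended for 14 named genes when probe sets were averaged (CCNG2, EGR1, FBN2, HES1, HK2, LAMA4, LATS2, NCAM1, PDK3, POLR1A, SLC2A1, TLN1, TP53INP1 and TPD52), for 10 without cross-hybridising probe sets (BHLHE41, BTG1, DIAPH1, HES1, HLF, JAG2, LAMA4, P4HA1, SLC2A1 and TPD52), for 8 after quantile normalization (DNMT3B, GLA, INSIG1, JAG2, NFKB1, PDK3, POLA1 and SDHA), for 4 under the replicate block (DNMT3B, INSIG1, MYC and TRIB3) and for 2 after median centring (MYC and VLDLR). More shared calls of named genes ended under the 2-fold rule (71), in the adjusted test without moderation (23) and without adherent replicate 2 (21). Fits of each comparison on its 2 groups alone ended 6 and array weights 2. Leaving out 1 array gave 1302 to 2357 genes higher, 2042 to 3148 lower, 396 to 729 shared rises, 702 to 1258 shared falls, 362 to 863 opposite changes and 429 to 811 that differ in size. Averaged log2 changes that turned were RBPJ (0.049 after quantile normalization, 0.907 without cross-hybridising probe sets and 0.211 with probe sets averaged), LAMA4 (0.092), SLC2A1 (-0.086), HES1 (-0.138) and BHLHE41 (-0.033) without cross-hybridising probe sets, and FBN2 (0.213), UGT3A1 (0.121) and CDH6 (0.2) with probe sets averaged. Leaving out 1 array gave -0.003 to 0.105 for NOTCH4 and -0.166 to 0.012 for UGT3A1, each turning without xenograft replicate 1. Fits without these probe sets read another probe set of the gene, and the cause of the other moves was not tested.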

Other observations

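Of the largest shared rises, B9D1 and MFAP4 lie near each other on chromosome 17, a fact seen after their values. In RefSeq order, B9D1 (log2 change 1.77 in spheres and 1.81 in xenografts), MAPK7, MFAP4 (2.34 and 2.26) and RNF112 (2.25 and 0.44) follow each other. MAPK7, between them, changed by 0.06 in both states and was not called (averaged adjusted p = 0.740). The neighbours on either side, EPN2-AS1 (averaged change 0.16) and SLC47A1 (0.14), were not called.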
